A study of Mus musculus with 4 samples.

Results

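The genes described here are 33 DNA damage repair genes, chosen by symbol from the 31054 features of the count matrices. All 33 symbols were found once in each of the 4 matrices. They were read in single intestinal cells sorted by flow cytometry from Bmi1-GFP mice, which carry a green fluorescent reporter at the Bmi1 locus. Every group carried this genotype. The 4 groups were embryos of day E12.5 or of day E17.5 (small intestine at the later day), untreated adults and irradiated adults, with 1 library each from a 10x Chromium 3′ kit. The sorting gates, the radiation dose and delay, and the sex, exact adult age and number of animals are not given in the sources used here. A library counts UMIs, unique molecular identifiers that each stand for 1 captured RNA molecule. With 1 library per group, a difference between groups has no replicate check, and no test or p-value is given.

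Cells lose and regain DNA integrity through several routes. Double-strand breaks are sensed by the MRN complex (Mre11a, Rad50, Nbn), signalled by the kinases ATM and ATR to Chek2 and Chek1, and mended by homologous recombination after replication or by end joining at any time. Single-strand breaks, bulky adducts, crosslinks and mismatches are each handled by pathways of their own. The intestinal crypt divides quickly and is known for its sensitivity to radiation, while the hormone-making and tuft cells that carry a Bmi1 reporter in the adult rarely divide.

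The filter asked for 500 or more genes and no more than 20% of UMIs from mitochondria. It left 4226, 4602, 3788 and 3184 cells, in the order E12.5, E17.5, adult, irradiated adult. Their median depth was 18638, 11499, 3699.5 and 8786 UMIs, and the share of barcodes kept was 81.0%, 88.0%, 60.3% and 53.1%. Pairs of libraries shared 6 to 12 barcodes. The cells were not uniform in kind. At E17.5, 963 kept cells, and at E12.5 38, lay in clusters named for non-intestinal or non-epithelial classes (acinar, islet, mesenchymal, mesothelial, smooth muscle). In the adult, 57.0% were enteroendocrine-like (by markers such as Chga and Neurod1) and 26.5% tuft-like (Dclk1, Trpm5), against 61.5% and 9.27% after irradiation. A cell was called cycling when it held at least 3 UMIs over 15 G2/M and 15 S phase genes after thinning to 2000 UMIs. In the same order, cycling cells were 89.4% (3268 of the 3655 cells deep enough), 38.9% (1717 of 4412), 5.77% (179 of 3102) and 1.64% (44 of 2679).

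The repair genes were most abundant in the youngest cells. Their summed level, in UMIs per 1000000 (CPM), was 1171 in E12.5 cells (95% Poisson interval 1164 to 1178) and 597 in E17.5 cells (591 to 602). Adult cells had 456 CPM (448 to 463) and irradiated adult cells 431 CPM (425 to 437). Among non-cycling cells alone the order of these last libraries was the reverse, 390 CPM in adult cells (382 to 398) and 417 CPM in irradiated cells (410 to 423), while cycling cells had 679 (659 to 699) and 669 CPM (633 to 706). In non-cycling cells Parp1 alone held 1842 of the 9525 member UMIs in the adult and 4536 of 16165 after irradiation. The median log2 ratio there, irradiated over adult, was -0.10 over the 29 members with at least 50 UMIs. The sum and the median thus went in opposite directions. Over all kept cells the median gene stood at 29.1, 15.5, 11.6 and 10.4 CPM from E12.5 to irradiated cells. The highest level of 29 of the 33 was at E12.5, and 26 were lower at each step from E12.5 to E17.5 to the adult. The 4 exceptions to an E12.5 maximum were Chek2 and Xrcc4, highest at E17.5, and Lig4 and Polk, highest in the irradiated adult. The lowest level of 23 was in the irradiated adult. These intervals, like all below, cover counting error only, and 3′ UMI counts do not scale with gene length.

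**Figure D1:**
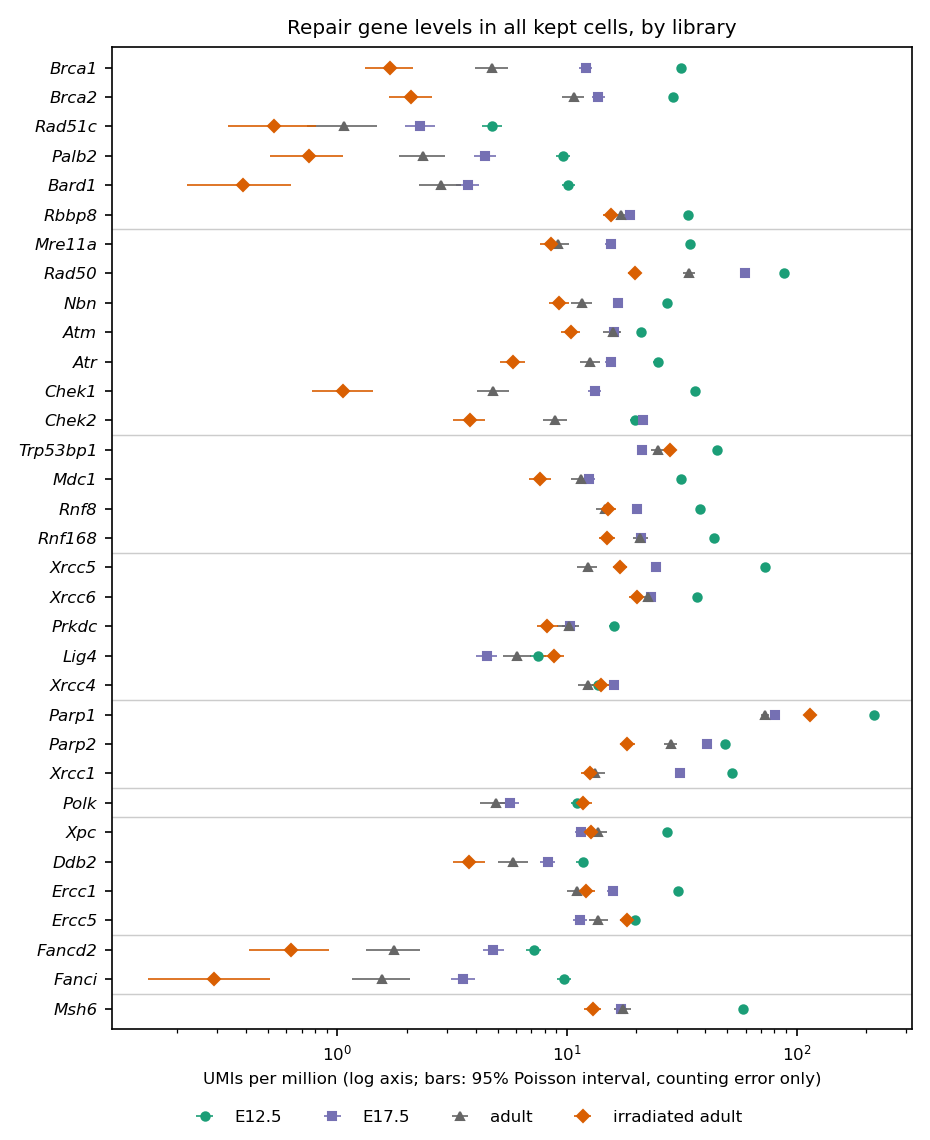
CPM of each of the 33 genes in all kept cells (log x axis), with 1 symbol per library and bars for the 95% Poisson interval; grey lines separate the pathways. The E12.5 symbol lies farthest right for 29 genes, and the irradiated adult symbol farthest left for 23.

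Parp1, which binds single-strand breaks and marks them with ADP-ribose chains, was the most abundant member in every library. Its 4 levels were 218, 80.3, 73.0 and 114 CPM from E12.5 to irradiated cells. Rad50, the long coiled-coil subunit of MRN, came second at E12.5 with 88.5 CPM and stood at 59.6, 34.0 and 19.7 CPM in the later libraries. At the bottom lay genes of homologous recombination and the Fanconi crosslink pathway. Rad51c, a gene of homologous recombination, was lowest at E12.5 (4.72 CPM), E17.5 (2.30) and in the adult (1.07), and Fanci was lowest in the irradiated adult (0.290). These ends of the order are apart by far more than their counting intervals.

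Most other members lay between these ends, and their order of libraries was mostly that of the median gene. Of the break sensors, Mre11a, the MRN nuclease, was 34.5, 15.5, 9.12 and 8.48 CPM from E12.5 to irradiated cells, and Nbn, the MRN adaptor, 27.3, 16.7, 11.6 and 9.25 CPM. Atm was 21, 16.1, 15.8 and 10.4 CPM, with overlapping intervals at E17.5 and in the adult. The ubiquitin ligases that mark chromatin beside a break, Rnf8 and Rnf168, were 37.8 and 43.9 CPM at E12.5 and 15.1 and 14.9 CPM in irradiated cells. Rbbp8, the CtIP protein that starts end resection, was 33.6, 18.8, 17.2 and 15.5 CPM. For each of these the E12.5 level was the highest. Prkdc was 16.0, 10.3, 10.2 and 8.22 CPM, and Ercc1, the partner of the XPF nuclease, 30.4, 15.8, 11.1 and 12.1 CPM. Parp2, a relative of Parp1 with a like role, had a steadier descent of 49.0, 40.6, 28.3 and 18.3 CPM.

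Between E12.5 and E17.5, 26 of the 33 genes were at least 1.5-fold lower and none was that much higher. Over all 15045 features with at least 50 UMIs in the pair, 31.0% were that much lower and 24.0% higher. Here and below a gene is called higher or lower when log2((CPM + 1)/(CPM + 1)) passes 1.5-fold and the compared groups hold at least 50 UMIs of it together. The median log2 ratio was -0.86 for the members and -0.17 for all features. Msh6, the mismatch reader of MutS alpha, was 17.2 CPM at E17.5 against 58.2 at E12.5 (ratio 0.296, interval 0.278 to 0.314). Xrcc5, the Ku80 subunit that clamps broken ends, was 24.4 against 73.1 CPM (0.333, 0.317 to 0.351). Parp1 (0.369), Chek1 (0.363), Brca1 (0.385), Mdc1 (0.397), Bard1 (0.365) and Fanci (0.363) completed the 8 farthest. Ku80 and Msh6 thus led a list that also held the replication-linked genes.

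The lower levels at E17.5 were also present within cells of like cycling state, a split added after the data were seen. In cycling cells 18 of 33 were called lower and none higher at E17.5 (34.9% and 18.9% of all features). In non-cycling cells 26 of the 30 with enough UMIs were called lower and none higher (32.5% and 26.4% of all features). Xrcc5 was 25.8 against 73.2 CPM in cycling cells and 22.4 against 71.6 in non-cycling cells. Parp1 was 82.5 against 220 CPM in cycling and 77.6 against 189 CPM in non-cycling cells. Trp53bp1, which steers breaks toward end joining, was 15.5 against 44.4 CPM in cycling cells and 29.5 against 48.6 in non-cycling cells.

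From E17.5 to the adult, 11 of 33 members were called lower and none higher (28.6% and 23.5% of 14533 features), with a median log2 ratio of -0.34 against -0.07 for all features. The member share of lower calls was near the share over all features. Chek1, the checkpoint kinase under ATR, was 4.76 against 13.2 CPM (0.362, 0.303 to 0.430), and Xrcc1, the scaffold of single-strand break repair, was 13.3 against 31.2 CPM (0.426, 0.384 to 0.473). Brca1 (0.389), Chek2 (0.413), Fancd2 (0.367), Xrcc5 (0.503), Fanci (0.445) and Rad50 (0.571) followed. Cycling cells made up far less of the adult library, and in cycling cells alone 2 members were called lower and 2 higher (20.3% and 12.9% of features). The 2 lower were Xrcc5 (13.8 against 25.8 CPM) and Xrcc4 (7.28 against 13.1 CPM), both of the end-joining machinery. The 2 higher were Brca2, a core protein of homologous recombination (33 against 19.2 CPM), and Bard1, the partner of BRCA1 (10.4 against 5.80 CPM). In non-cycling cells 5 of 30 were called lower and 1 higher (30.9% and 19.9% of features). Xrcc1 was 9.74 against 23.4 CPM there, and Msh6, the higher one, 16.9 against 9.40 CPM. By class, Msh6 was 58.5 CPM in tuft-like, 6.75 in enteroendocrine-like and 6.37 in Paneth-like non-cycling adult cells. No E17.5 cluster was named tuft-like, and the part of cell kind in the Msh6 difference was not tested.

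Many members were higher in cycling than in non-cycling cells of the same library. At E17.5, where both states were well filled, 21 of 33 were called higher in cycling cells and 1 lower, against 12.6% and 28.3% of 13658 features. At E12.5 the counts were 8 higher and 0 lower of 33 (3.92% and 7.85% of features). In the adult they were 20 higher and 3 lower of 32 (25.4% and 34.3%), and in the irradiated adult 17 higher and 4 lower of 27 (27.1% and 34.2%). The median log2 ratio of the members was 0.23, 0.72, 0.84 and 0.76 in the 4 libraries, while that of all features lay between -0.18 and -0.06. The E12.5 direction depended on how cycling cells were called: without thinning its median was -0.12, with 4 members higher. Brca1, Brca2, Chek2 and Mdc1 were called higher in cycling cells of all 4 libraries, and 12 more members in 3 of the 4.

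Fancd2, Bard1, Fanci, Brca1 and Chek1 had the widest gaps at E17.5. Fancd2, the crosslink protein that is monoubiquitinated at stalled forks, was 7.82 CPM in cycling and 0.385 in non-cycling cells at E17.5 (20.3-fold, 11.5 to 39.7). In the adult it was 7.44 and 0.327 CPM (22.7-fold, 10.7 to 55.6). Brca1, the ubiquitin ligase of recombination, was 18.4 and 2.86 CPM at E17.5 (6.44-fold, 5.17 to 8.11) and 16.9 and 1.55 CPM in the adult (10.9-fold, 7.44 to 16.2). At E12.5 it was 32.8 and 8.24 CPM (3.98-fold, 3.02 to 5.34). Bard1 was 9.04-fold and Fanci, the partner of FANCD2, 7.38-fold higher at E17.5. In that library Chek1 was 5.28-fold, Palb2, the bridge from BRCA1 to BRCA2, 4.70-fold, Chek2 3.57-fold and Brca2 3.44-fold higher. Not all recombination genes were so far apart: Rad51c was 2.90 and 1.44 CPM (2.01-fold) and Rbbp8 22.2 and 13.9 CPM (1.60-fold), and at E12.5 Rbbp8 was 33.3 and 35.0 CPM. Rad50 was the widest of the sensing complex, at 79.2 and 31.1 CPM (2.55-fold, 2.37 to 2.74) at E17.5 and 81.3 and 21.4 CPM (3.79-fold, 3.35 to 4.29) in the adult.

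Trp53bp1 and several end-joining genes did not share this pattern. Trp53bp1 was the reverse, 15.5 CPM in cycling and 29.5 in non-cycling cells at E17.5 (ratio 0.524, 0.474 to 0.579), 12.7 and 26.7 CPM in the adult (0.475, 0.373 to 0.599) and 10.8 and 28.7 CPM after irradiation (0.377, 0.233 to 0.579). At E12.5 its levels were 44.4 and 48.6 CPM. By class, it was 41.1 CPM in enteroendocrine-like, 18.4 in tuft-like and 5.77 in Paneth-like non-cycling adult cells. The part of cell kind in its ratios was not tested. Trp53bp1, Xrcc5, Lig4 (the ligase of end joining), Xrcc4 (its cofactor), Parp1 and Xpc (the damage reader of nucleotide excision) were called higher in cycling cells of none of the libraries. Xrcc4 was 7.28 CPM in cycling and 13.4 CPM in non-cycling adult cells. In the other direction Xrcc6, the Ku70 subunit, was 27.9 and 16.6 CPM at E17.5 (1.69-fold) and 35.2 and 18.7 CPM in the adult (1.88-fold), so the 2 Ku subunits differed in this respect.

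**Figure D2:**
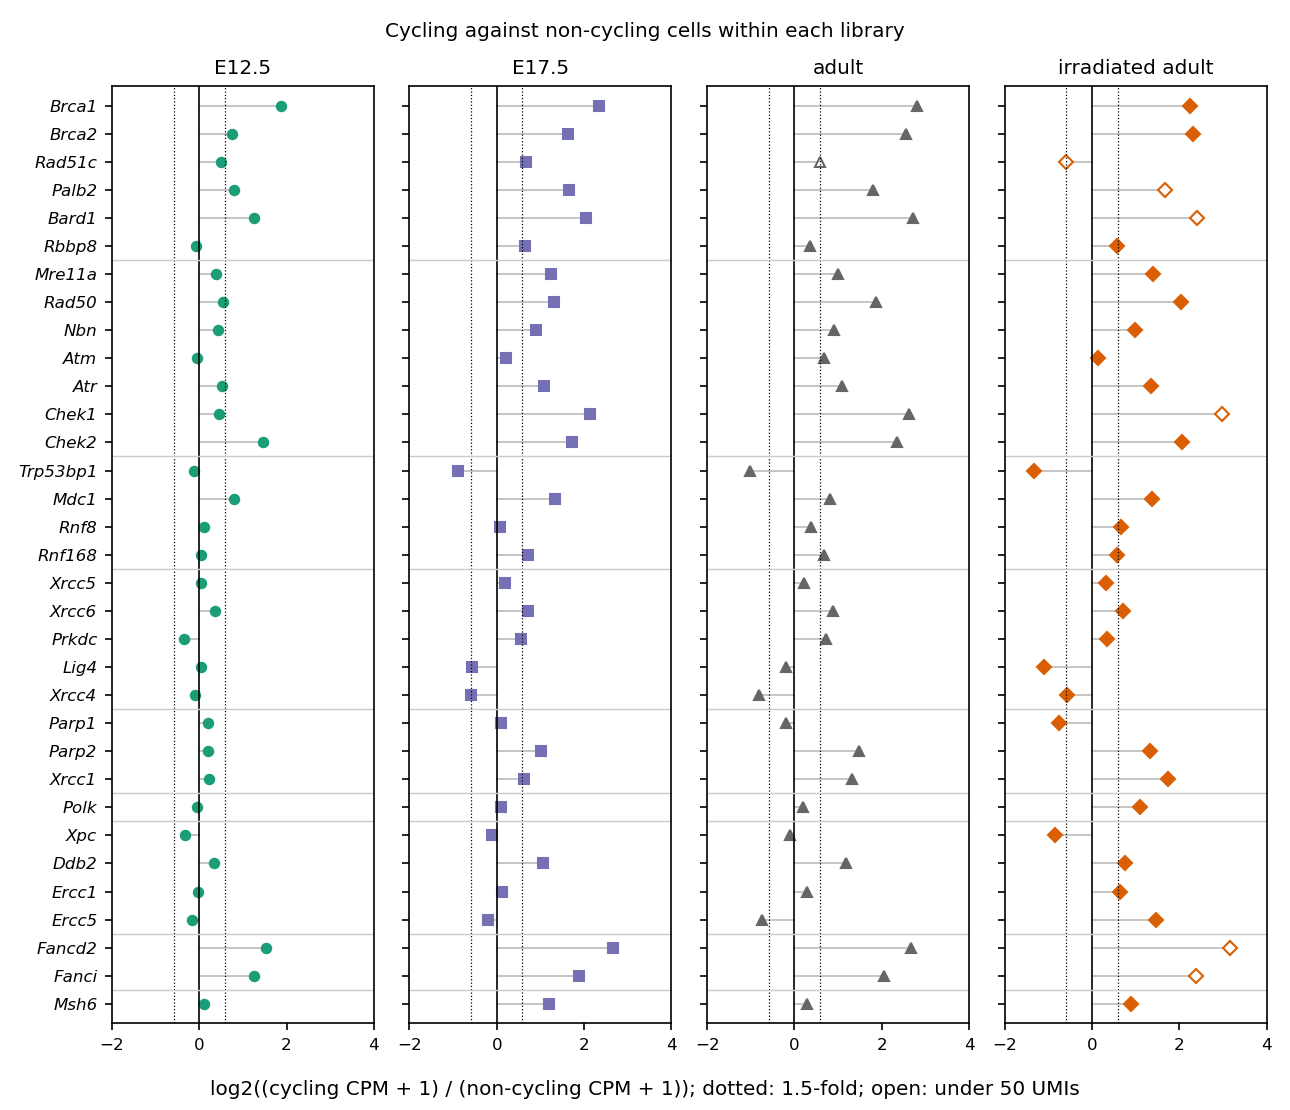
Log2 ratio of cycling over non-cycling cells for each gene, 1 panel per library; dotted lines mark 1.5-fold and open symbols genes with under 50 UMIs in the pair. Fancd2, Bard1 and Brca1 lie far to the right at E17.5 and in the adult, and Trp53bp1 lies left of the 1.5-fold line in 3 of the 4 libraries.

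Cycling and non-cycling cells differed in kind. Enteroendocrine-like cells were 7 of the 1717 cycling and 796 of the 2695 non-cycling cells at E17.5. In the adult they were 14 of 179 and 1648 of 2923. The part of cell kind in the cycling ratios was not tested. Cycling cells were also deeper than non-cycling cells, with a median of 26446 against 4478 UMIs in the adult and 43857 against 10331 after irradiation. With every cell thinned to 2000 UMIs, an alternative added after the data were seen, the median log2 ratio was 0.30 for adult cells and -0.11 for irradiated ones. In that last library the sign of the member median was thus the reverse. Few UMIs stood behind it: after thinning, 30 of the 44 irradiated cycling cells held a UMI of any member. The parts of depth and of these low counts in it were not tested. Cycling cells split by phase showed smaller gaps, again a split added later. At E12.5, 1 member was called higher in cells with more S phase than G2/M UMIs and 1 lower (0.671% and 1.43% of features): Msh6 (74.4 against 49.1 CPM) and Fanci (7.16 against 11.7 CPM). At E17.5, 4 were higher and 1 lower (3.72% and 2.42%). Msh6 was 36.4 CPM in S phase and 17.9 in G2/M cells, Rad51c 4.56 and 2.27, Chek1 29.7 and 16.9, and Brca1 26.7 and 15.7, while Fancd2 was 4.56 and 8.66.

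Since many members moved with the cell cycle, their promoters were searched for E2F-type motifs, the letters TTTCCCGC, TTTGGCGC, TTTCGCGC and TTTGCCGC on either strand. E2F factors are known regulators of genes used at the start of S phase. RefSeq promoters (GRCm38.p6, 250 bases before to 50 after the start site) were at hand for 26 members, of which 7 (26.9%) held a match. Over all 27025 genes with a promoter the share was 2.60%. It was 9.72% of 1327 genes called higher in cycling cells at E17.5 and 3.85% of 9173 other tested genes. The 7 members were Bard1, Chek2, Brca2, Rad51c, Xrcc6, Mdc1 and Msh6. All 7 were among the 16 members with a promoter that were called higher in cycling cells at E17.5, and 0 of the other 10 members held a match. A match describes letters and is no evidence of binding. Below are 60-base windows that lie before the start site, 5′ to 3′ on the gene's strand, with the motif in capitals, shown because these genes were among those with higher levels in cycling cells. They lie at chr1:71103148-71103207 (Bard1, - strand), chr5:150522427-150522486 (Brca2, + strand), chr5:110839805-110839864 (Chek2, + strand), chr17:35841438-35841497 (Mdc1, + strand) and chr15:82016297-82016356 (Xrcc6, + strand).
Bard1: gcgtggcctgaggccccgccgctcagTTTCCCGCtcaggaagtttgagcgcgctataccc
Brca2: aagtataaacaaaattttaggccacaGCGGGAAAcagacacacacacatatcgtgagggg
Chek2: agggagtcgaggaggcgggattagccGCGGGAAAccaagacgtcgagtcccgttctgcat
Mdc1: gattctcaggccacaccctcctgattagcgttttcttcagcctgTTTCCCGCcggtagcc
Xrcc6: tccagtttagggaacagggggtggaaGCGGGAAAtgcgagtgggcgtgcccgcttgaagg
In all 5 windows the match is the same 8 letters, read forward in Bard1 and Mdc1 and as the reverse complement GCGGGAAA in Brca2, Chek2 and Xrcc6. Its distance to the RefSeq start site ranged from 8 bases in Mdc1 to 201 bases in Bard1. GENCODE M21 places some gene starts elsewhere. It starts Xrcc6 at chr15:81987835, so that window lies inside the gene, and Bard1 at chr1:71103146, next to its window.

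Irradiated adult cells were compared with adult cells next. Over all kept cells, 11 of 33 members were called lower and 2 higher, against 12.8% and 8.30% of 13510 features. The median log2 ratio was -0.40 for the members and -0.04 for all features. The lower calls comprised 4 of 6 homologous recombination genes, 4 of 7 break sensing and checkpoint genes, both Fanconi genes and Parp2. Brca2 was 2.10 CPM in irradiated and 10.7 in adult cells (ratio 0.197, 0.154 to 0.25), Chek1 1.06 and 4.76 (0.223, 0.156 to 0.314) and Bard1 0.387 and 2.82 (0.137, 0.0751 to 0.235). Brca1 was 1.69 and 4.70 CPM (0.360, 0.267 to 0.481), Chek2 3.77 and 8.90 (0.424, 0.346 to 0.517) and Atr, the kinase of stalled forks, 5.80 and 12.6 (0.461, 0.392 to 0.543). Fanci (0.185) and Palb2 (0.319) were the other 2 of the 8 farthest, and Fancd2, Rad50 and Parp2 were also called lower. Rad50 differed by class: in non-cycling adult cells it was 41.3 CPM in tuft-like, 13.5 in enteroendocrine-like and 12.1 in Paneth-like cells. After irradiation the same classes had 47.9, 14.2 and 3.73 CPM. Tuft-like cells were 26.5% of adult and 9.27% of irradiated cells, and their part in the lower Rad50 level was not tested. The end-joining, nucleotide excision and chromatin mediator groups held no called gene.

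Only 44 irradiated cells against 179 adult cells were cycling, so the comparison was repeated in non-cycling cells. There 3 of the 29 members with enough UMIs were called lower and 2 higher (10.7% and 6.73% of 13243 features). The median log2 ratio was -0.10, against -0.01 for all features. Bard1, Fancd2, Fanci and Rad51c had too few UMIs. Chek1 was 0.567 against 1.84 CPM (0.308, 0.176 to 0.524), Brca2 1.60 against 4.75 (0.337, 0.243 to 0.462) and Atr 5.31 against 9.78 (0.543, 0.449 to 0.657). The calls of Chek1 and Atr ended when cycling was set at 4000 UMIs (log2 difference -0.43 and -0.39), and that of Chek1 also as a mean over cells (-0.53) or without thinning (-0.42). Brca1 was 1.29 against 1.55 CPM and Rad50 17.1 against 21.4 CPM. The member median over all kept cells also shrank to -0.02 when every cell was thinned to 2000 UMIs, and was -0.18 as a mean over cells. Cycling cells were 5.77% of adult and 1.64% of irradiated cells. The part of that share in the difference over all kept cells was not tested. Nor was its part in Brca2, Chek1 and Atr within non-cycling cells.

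**Figure D3:**
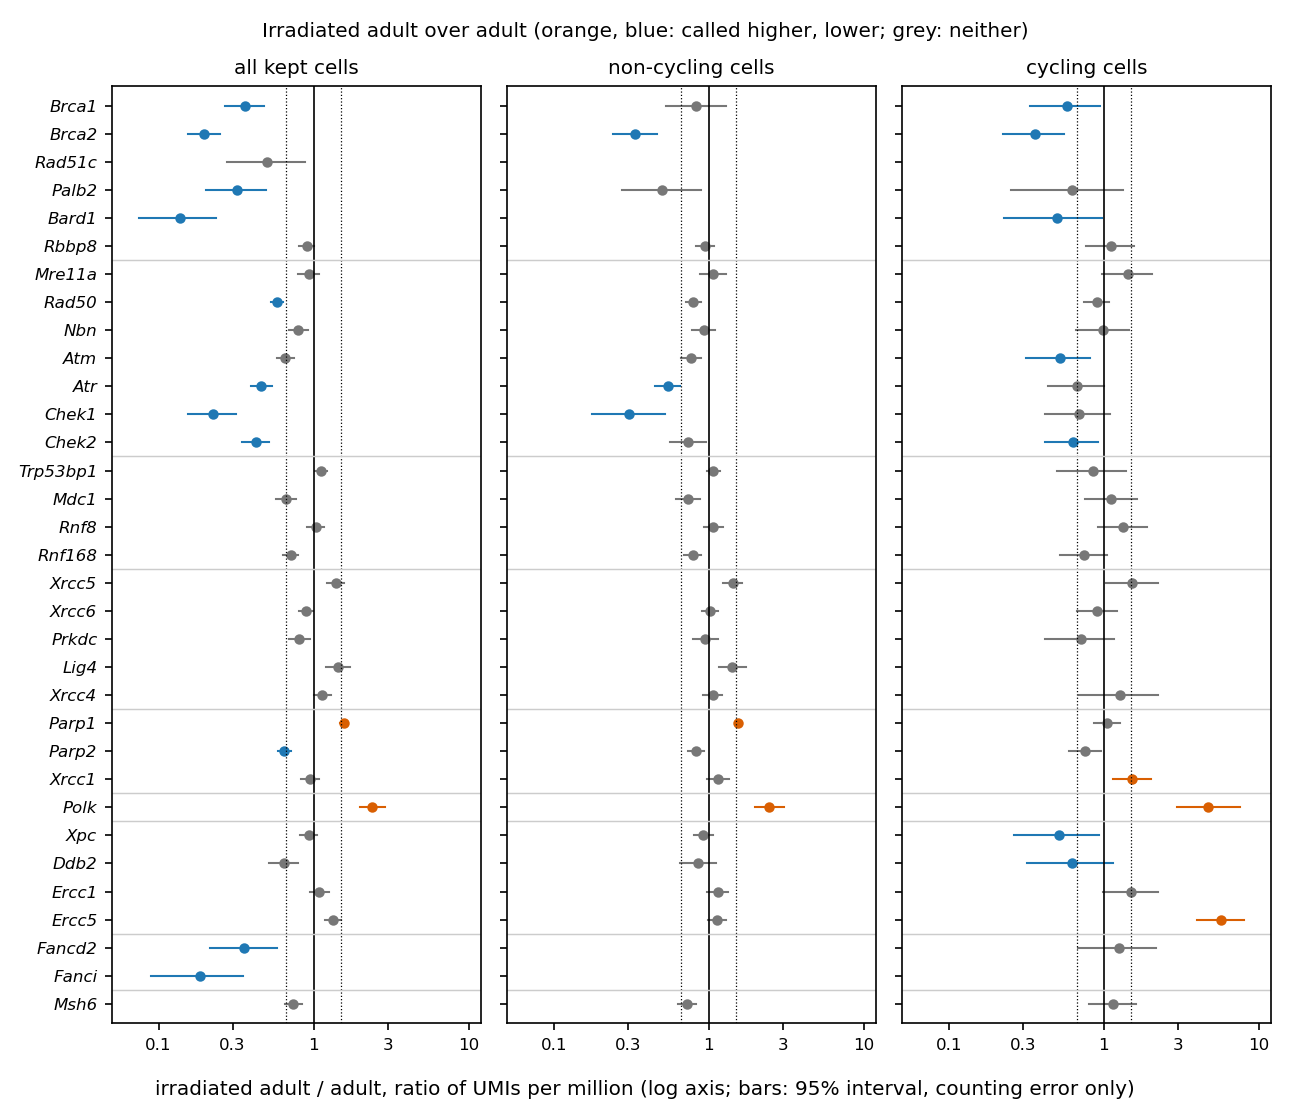
Ratio of irradiated adult over adult in CPM (log x axis) with 95% counting intervals, in all kept, non-cycling and cycling cells; orange and blue mark genes called higher and lower, and genes under 50 UMIs in the pair are left out. Brca2 is blue and Polk orange in all 3 panels, and most blue points of the left panel are grey or missing in the middle one.

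Polk and Parp1 went the other way. Polk encodes polymerase kappa, which copies past bulky base damage. It was 11.8 CPM in irradiated and 4.92 in adult cells (2.40-fold, 2.00 to 2.89). In non-cycling cells it was 11 and 4.5 CPM (2.45-fold, 1.98 to 3.05), and in cycling cells 24.7 and 5.27 CPM (4.69-fold, 2.96 to 7.51). At E12.5 and E17.5 it was 11.1 and 5.64 CPM. Its level after irradiation was thus near that of E12.5 cells, with overlapping intervals in the plot by library. With a pseudocount of 10 CPM the log2 difference was 0.55 over all kept and 0.54 in non-cycling cells, short of 1.5-fold. In cycling cells it was 1.27 as a mean over cells, against 2.04. By class, in non-cycling enteroendocrine-like cells it was 11.1 against 5.26 CPM (2.11-fold, 1.58 to 2.86), and in non-cycling tuft-like cells 14.0 against 3.68 CPM, on 21 and 17 UMIs, too few for a call. In non-cycling Paneth-like cells the intervals overlapped (4.56 and 3.04 CPM). Clusters of the 2 adult libraries were also paired when they were each other's best match and shared at least 3 of 10 leading genes, a step added after the data were seen. Polk was higher in the irradiated cluster of 10 of 10 such pairs, by 1.07-fold to 11.8-fold with a median of 2.42-fold, and the interval left out 1 in 6 of them. The 1.07-fold pair was led by Ghrl, Gcg and Cck, and the 11.8-fold pair, led by Sst, held a single adult UMI.

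Parp1 was 114 CPM in irradiated and 73.0 in adult cells (1.57-fold, 1.49 to 1.65), and 117 and 75.4 CPM in non-cycling cells (1.55-fold, 1.47 to 1.64). In the same 10 cluster pairs its ratio had a median of 1.06 and the interval lay above 1 in 2. These were the clusters sharing Afp, Trpa1 and Ucn3 (622 against 391 CPM, 1.59-fold, 1.38 to 1.84) and the clusters sharing Cyp2j5 and Cck (80.8 CPM after irradiation, 1.35-fold, 1.06 to 1.72). In the pair led by Sst it was 212 against 216 CPM, in the pair led by Cartpt 169 against 162 CPM and in the pair led by Gip 69.2 against 72.9 CPM. Parp1 differed far more between kinds of cell than between libraries. It was 116 CPM in non-cycling adult enteroendocrine-like cells, 13.2 in tuft-like and 15.5 in Paneth-like cells. In the irradiated library the same classes had 165, 19.3 and 8.15 CPM. The enteroendocrine-like difference was 1.42-fold (1.33 to 1.51), short of the call with an interval above 1. The makeup of that class differed too. The Sst-led cluster counted toward it after irradiation alone, and the Afp, Trpa1 and Ucn3 clusters held 59 adult and 172 irradiated cells. The part of makeup in the 1.42-fold difference was not tested. The makeup of the libraries moved with the overall Parp1 difference: the cluster sharing Afp, Trpa1 and Ucn3 was 5.40% of irradiated and 1.56% of adult cells, and tuft-like cells 9.27% and 26.5%. Without the Afp, Trpa1 and Ucn3 clusters the overall ratio was 1.31 (1.24 to 1.38), which does not pass 1.5-fold. With a stricter cell filter (1000 genes, 10% mitochondrial UMIs) the log2 difference over all kept cells was 0.38, and 0.35 in non-cycling cells, also short of the call. In the 1 pair of Paneth-like clusters Parp1 was lower, 8.15 against 16.3 CPM (0.501, 0.343 to 0.732), and the 33 members together were 73.0 against 156 CPM there. The irradiated cluster of that pair was deeper, with a median of 98803 against 28708 UMIs. It held 0 cycling cells, against 10 in the adult one. The parts of depth and cycling in that pair were not tested. That pair was the only 1 with an interval below 1 for the summed members. Their ratio was above 1 in 8 of the 10 pairs, with the interval above 1 in 6 and a median of 1.10. Parp1 is part of these sums. In the clusters sharing Afp, Trpa1 and Ucn3 it held 1262 of 1939 member UMIs after irradiation and 223 of 446 in the adult.

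**Figure D4:**
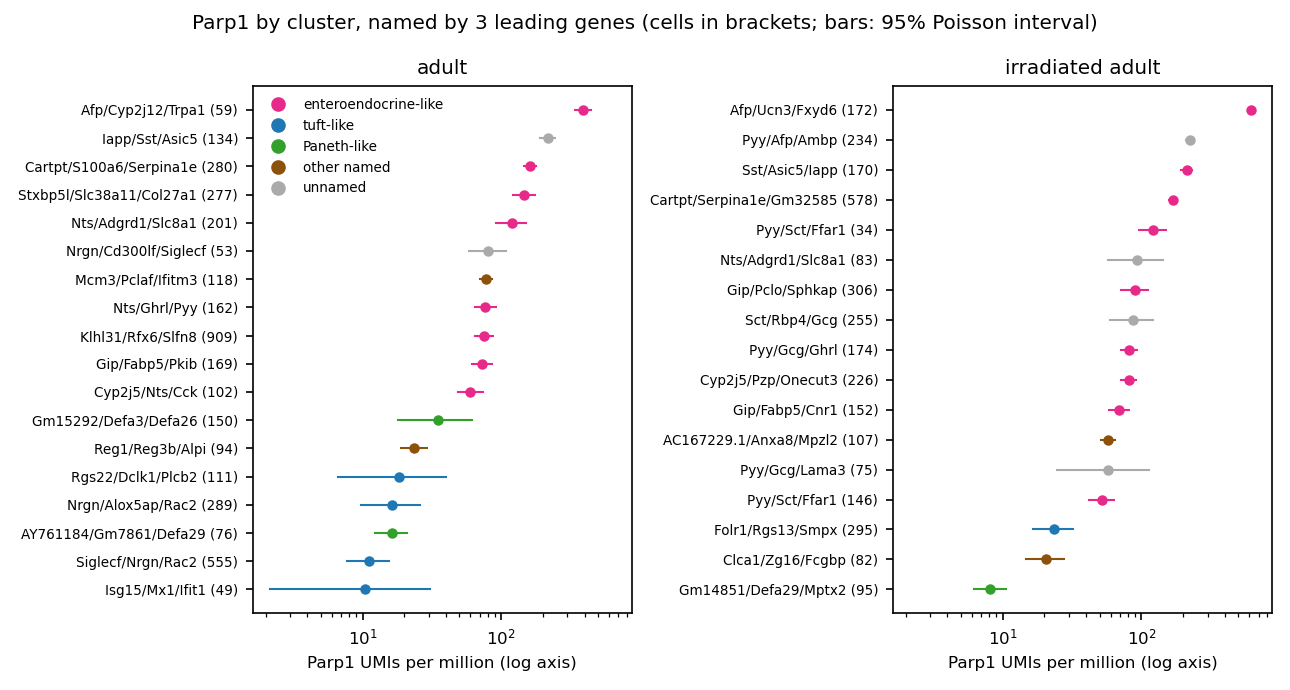
Parp1 level in CPM (log x axis, 95% Poisson bars) in each cluster of the adult and irradiated adult libraries, sorted by level, labelled with leading genes and cell number and coloured by class. The cluster led by Afp is highest in both libraries (391 and 622), and tuft-like and Paneth-like clusters are among the lowest.

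Within non-cycling enteroendocrine-like cells (1836 irradiated and 1648 adult), 2 of 26 members were called higher and 2 lower (5.99% and 6.22% of 12177 features). The member median was 0.03, against 0.06 for all features. Besides Polk, Lig4 was higher, 12.6 against 7.54 CPM (1.68-fold, 1.31 to 2.16). As a mean over cells its log2 difference was 0.49, short of the call. Over all kept cells Lig4 was 8.77 against 6.08 CPM, short of the call. Its ratio exceeded 1 in 9 of the 10 cluster pairs, but the interval lay above 1 in only 2. Brca2 was 1.92 against 4.47 CPM (0.429, 0.275 to 0.663) and Atr 6.39 against 11.2 CPM (0.569, 0.443 to 0.733). Both shares of calls were near those over all features. In non-cycling tuft-like cells (241 irradiated and 916 adult), 2 of 18 members were called higher and none lower (10.1% and 5.03% of 7639 features). Xrcc1 was 16.6 against 9.31 CPM (1.79-fold, 1.05 to 2.99), on 25 and 43 UMIs, and with the stricter cell filter the log2 difference was 0.34. Prkdc, the catalytic kinase of end joining, was 14.6 against 8.66 CPM with an interval that included 1 (0.956 to 2.91). The adult cluster led by Iapp and Sst had no name by its markers while its irradiated counterpart was named enteroendocrine-like, so the class differed by that cluster. The reverse held for the clusters led by Nts and Adgrd1, named in the adult and not after irradiation, and 3 more irradiated clusters scored highest for enteroendocrine markers but were left unnamed.

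In cycling cells, 3 of 30 members were called higher after irradiation and 7 lower (16.9% and 15.5% of 9161 features), with a median log2 ratio of -0.14 against 0.03. Ercc5, the XPG nuclease that cuts 3′ of bulky lesions, differed most in this comparison. It was 47.4 CPM in irradiated and 8.37 in adult cycling cells (5.66-fold, 4.00 to 8.08), but 16.6 and 14.6 CPM in non-cycling cells. Of its 92 UMIs in irradiated cycling cells, at most 13 came from 1 cell, and without that cell the ratio was 5.23 (3.66 to 7.54). With cycling cells called without thinning, the log2 difference was 1.30 in place of 2.37. Ercc5 was also high in the irradiated enteroendocrine-like cluster led by Gip and Pclo, at 44.6 CPM (32.0 to 60.5). In the cluster pairs its ratio was above 1 in 7 of 10, with the interval above 1 in 2, the pair sharing Klhl31 and Rfx6 (1.69) and the pair sharing Gip and Fabp5 (2.23). Xrcc1 was 39.7 against 25.9 CPM (1.53-fold, 1.15 to 2.02), and 1.44-fold without the cell with most UMIs. Its call also ended with TMM scaling (log2 0.49), without putative doublets (0.55) and without thinning (0.08). Brca2 was 11.8 against 33 CPM (0.359, 0.223 to 0.553), and Bard1, Xpc, Atm, Brca1 and Chek2 were also lower with intervals below 1. Atm, the kinase of double-strand breaks, was 11.3 against 21.8 CPM and Xpc 6.70 against 13.0 CPM. Ddb2, which flags ultraviolet damage, was 6.70 against 10.7 CPM with an interval that included 1. Rad51c had 0 UMIs in irradiated cycling cells.

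The cycling cells of the 2 adult libraries were of different kinds. Of the 179 adult ones, 94 lay in a cluster led by Mcm3 and Pclaf with crypt stem markers and 49 in Paneth-like clusters. Of the 44 irradiated ones, 30 lay in a cluster led by Anxa8, Mpzl2, Aadac and Kcnn4. Enterocyte markers scored highest in that cluster, but none of them was among its leading 10 genes. All 92 Ercc5 UMIs and all 48 Polk UMIs of irradiated cycling cells came from these 30 cells. Ercc5 in this cluster was 48.8 CPM in cycling and 30.6 CPM in non-cycling cells (39.3 to 59.8 and 25.2 to 36.8). Polk was 25.4 and 22.5 CPM (18.8 to 33.7 and 17.9 to 27.8). In the adult cluster led by Mcm3, Ercc5 was 9.23 and Polk 5.92 CPM, and in the adult enterocyte-like cluster 8.57 and 4.42 CPM. The kind of cell and irradiation cannot be told apart in this comparison, since no adult cluster paired with the Anxa8-led one.

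**Figure D5:**
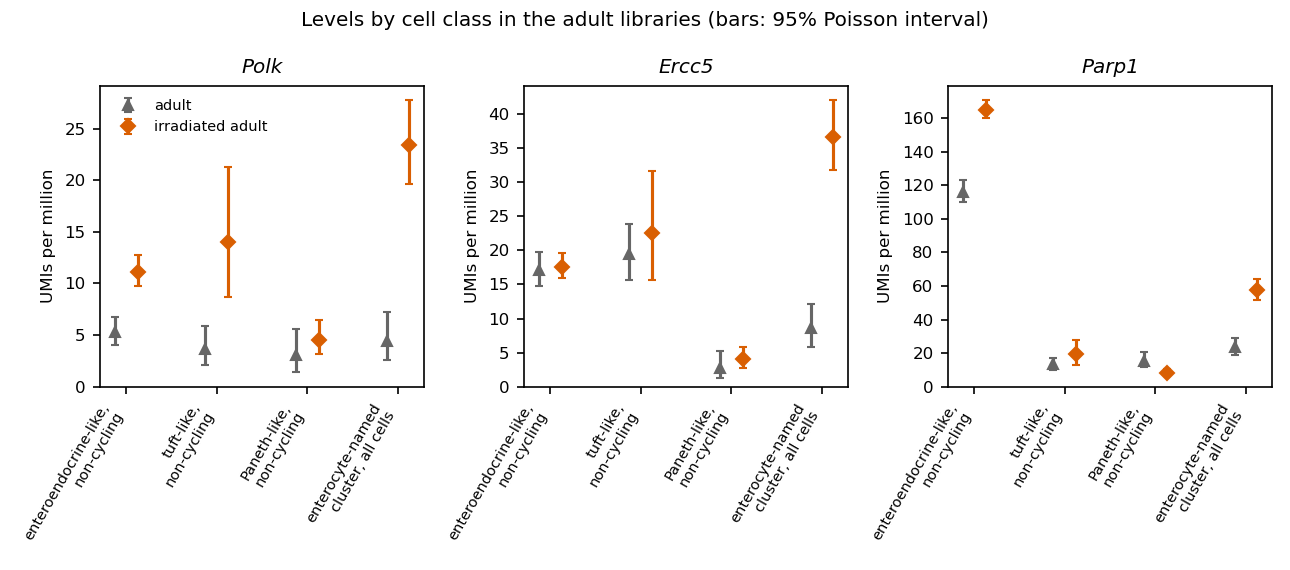
Polk, Ercc5 and Parp1 in CPM (y axis from 0) by cell class in the adult (grey triangles) and irradiated adult (orange diamonds), with 95% Poisson bars; the last position is the cluster with the highest enterocyte score in each library. Polk is higher after irradiation in all 4 positions (with overlapping bars in Paneth-like cells), Ercc5 with bars apart in the last alone (36.7 against 8.57), and Parp1 lies between 8.15 and 19.3 in tuft-like and Paneth-like cells of both libraries.

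A further 75 repair genes that are not members were read the same way. Over all kept cells, 24 of 73 were called lower after irradiation and 2 higher (12.8% and 8.30% of all features). Among the farthest lower were Neil3 (0.870 against 4.86 CPM), Rad54l (1.11 against 5.36), Ung (3.50 against 12) and Exo1 (0.870 against 4.07). In non-cycling cells 11 of 67 were called lower and 3 higher (10.7% and 6.73% of all features). Mgmt, which removes alkyl groups from guanine, was 18.7 against 1.91 CPM over all kept cells (9.78-fold, 7.53 to 12.9) and 16.2 against 0.982 CPM in non-cycling cells (16.5-fold, 11 to 26). Of its 630 UMIs in irradiated non-cycling cells, 308 came from the Anxa8-led cluster. Wee1, the kinase that holds cells in G2, was 2.33-fold higher in non-cycling cells, and Ddb1, the partner of DDB2, 114 against 74.2 CPM. At E17.5, 37 of 74 were called higher in cycling cells and 2 lower (12.6% and 28.3% of all features).

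Targets of p53, the transcription factor activated by DNA damage, were set beside the members as a second list of 18 genes. This list, like the members, was chosen with earlier results of these data known. After irradiation 13 of 18 were called higher over all kept cells and none lower (8.30% and 12.8% of all features). The median log2 ratio was 1.36 against -0.40 for the repair genes. In non-cycling cells the count was again 13 of 18 (6.73% of all features), and in cycling cells 13 of 15 (16.9%). Phlda3 was 96.5 against 1.91 CPM (50.5-fold, 39.2 to 66.1), Eda2r 11.6 against 0.439 CPM (26.3-fold, 15.5 to 48.5) and Ccng1 177 against 22.3 CPM (7.97-fold, 7.37 to 8.62). Zmat3 was 39.9 against 11.7 CPM and Aen 51.2 against 15.8 CPM. Xpc and Ddb2, often listed as p53 targets in human cells, were 12.7 against 13.6 CPM and 3.75 against 5.83 CPM over all kept cells. Neither was called higher in any irradiation comparison where it had enough UMIs. Ddb2 had too few in non-cycling tuft-like cells (6 irradiated and 13 adult UMIs).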

How the data were processed

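The authors deposited 1 matrix of raw UMI counts per library, written by Cell Ranger 3.1.0 with the mm10 build, per the submitters' processing notes. No normalization had been applied to these deposited counts. The lowest barcode total was 500 UMIs in each library. From the files, UMIs were summed over kept cells per library, state or class and divided by the total (CPM, per 1000000 UMIs). Levels carry exact Poisson intervals and ratios exact binomial (Clopper-Pearson) intervals. Calls used log2 with a pseudocount of 1 CPM. Nothing was tested, since n = 1 library per group. Putative doublets were kept in the main values and removed by Scrublet score in an alternative. Clusters (scanpy 1.11.5, leidenalg 0.10.2, resolution 1) were built per library without repair, cycling and p53 genes and named from marker lists. The naming thresholds were set after clusters had been seen. Genes were named where called with an interval leaving out 1, at most the 8 farthest each way (5 for other lists), plus the ends of the order of levels. Genes chosen after their values were seen are Lig4, Xrcc5, Xrcc6, Trp53bp1, Xpc and Ddb2. Window positions and distances came from the RefSeq promoters, and the gene starts set beside them from GENCODE M21. The members and lists were chosen with earlier results of these data known. On simulated counts with 2-fold changes, 91.3% of 195 changed genes were called the right way (irradiated over adult, all kept cells, 13491 genes), and 95.8% of intervals held the true ratio. For cycling cells 91.9% of 197 were, and 1.72% of unchanged genes passed 1.5-fold with an interval leaving out 1. The counts were Poisson draws from pooled levels. They hold counting error alone, so they cannot show how calls fare against differences between cells, animals or libraries. TMM factors came from edgeR 4.0.16. 1 gene of the other repair list is not reported here by name.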

Additional observations from a re-analysis of the deposited data

How the results depend on the processing

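Of 193 median values under alternatives, 173 moved by less than the set tolerance, and of 193 counts of members 156 stayed within 1.5 times. For irradiated over adult cells (median -0.40, 11 lower), the median was -0.19 with every barcode, -0.18 as a mean over cells, -0.15 with a pseudocount of 10 CPM or at least 200 UMIs, and -0.02 with cells thinned to 2000 UMIs. The lower count was 7 with the stricter cell filter or a mean over cells, 1 with the pseudocount of 10, 6 with 200 UMIs and 3 with thinned cells. In non-cycling cells (3 lower) it was 0 with the pseudocount of 10, 8 when cycling was set at 1000 UMIs, and 1 with 4000 or with at least 200 UMIs of the gene. In cycling cells (7 lower) it was 3 with the stricter filter, 1 with the pseudocount of 10, 2 with 200 UMIs, 4 at 1000 UMIs and 17 without thinning.

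For cycling over non-cycling cells without thinning, the medians of the E12.5, adult and irradiated libraries were -0.12, 0.34 and 0.05, with 4, 13 and 8 higher. With levels from thinned cells adult cells gave 0.30 (8 higher) and irradiated cells -0.11 (9 higher), where the sign turned. That last value rested on few UMIs, since 30 of the 44 irradiated cycling cells held any member UMI after thinning. The cause of the turn was not tested. At E12.5 the higher count (8) was 2 with the pseudocount of 10, 3 with G2/M genes alone and 5 at 1000 UMIs. At E17.5 the median (0.72) was 0.97 with TMM, 0.96 and 0.50 with pseudocounts of 0.1 and 10, 0.51 with G2/M genes alone and 0.94 at 4000 UMIs, and the count (21) was 11 with the pseudocount of 10. In the adult a mean over cells gave 0.36 and 13 higher, the pseudocount of 10 gave 11 higher, and 200 UMIs gave 13. For E17.5 over E12.5 the median was -0.99 as a mean over cells, -0.72 with TMM and -0.54 with the pseudocount of 10, which left 15 lower. For adult over E17.5 it was -0.53 with the stricter filter, and 6 were lower with the pseudocount of 10. Enteroendocrine-like cells had 0 higher with that pseudocount. Tuft-like cells (2 higher) had 0 with the stricter filter, with that pseudocount or with 200 UMIs, 1 with TMM, with non-cycling cells at 0 UMIs or with thinned cells, 4 with 20 UMIs and 5 with 1 UMI. TMM moved the median of all features from -0.18 to 0.06 for cycling over non-cycling cells at E17.5 and from -0.17 to -0.04 for E17.5 over E12.5.

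Of 344 single gene values, 321 stayed within their counting interval and 0 reversed. A reversal was counted only for genes called in the main values with an interval leaving out 1. Ercc5 in non-cycling cells, irradiated over adult, was not called, and its sign turned without thinning (log2 -0.01). No paired analysis was possible because each group has 1 library. Depth limited the crosslink and recombination genes most, which held under 50 UMIs in several comparisons.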

Other observations

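Mgmt, the widest difference among the repair genes outside the list, was also higher in irradiated cycling cells. It had 127 UMIs there, with at most 12 in 1 cell, and 37 UMIs in adult cycling cells, and the ratio without the richest cell was 10.8 (7.39 to 16.1). In non-cycling cells it had 630 and 24 UMIs, and the ratio without the richest irradiated cell was 16 (10.7 to 25.2). The Anxa8-led cluster held 123 of the 127 UMIs in irradiated cycling cells and 308 of the 630 in non-cycling cells. No adult cluster paired with it, so the kind of cell and irradiation cannot be told apart for these UMIs.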
